A study of Mus musculus with 21 samples.

Results

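Quadriceps muscle of endurance-trained mice, taken 6 h after an exhaustive run, was compared with quadriceps muscle of sedentary mice by bulk RNA-seq. The comparison rests on 6 of the 21 RNA-seq columns of the series, 3 trained 6 h and 3 sedentary libraries, which were chosen by their labels and not by any measured value. It covers the 11701 of 53738 gene symbols with a mean of at least 1 TPM (a transcript level scaled by transcript length and by the library's total) over those 6 libraries. All mice were male wild-type C57/Bl6 animals of 22 to 26 weeks of age at sacrifice. Trained mice had free access to running wheels for 12 weeks from the age of 12 weeks, with no rest before the final test. That test was the exercise bout, a treadmill run at a 5° incline and at up to 30 m/min until exhaustion. Sedentary mice had neither wheel nor bout, so wheel training and the bout cannot be told apart in this comparison. Trained 6 h libraries were therefore also compared with 3 libraries of untrained mice 6 h after the same test. They were also compared with 3 libraries of trained mice 72 h after it. The study reports better performance of trained mice in maximal tests. Since the run ended at exhaustion, its length and top speed may have differed between training states. The time of day at sacrifice is not given in the sources used here.

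Endurance exercise places several demands on a muscle fibre at once. Contraction raises calcium and depletes energy and glycogen, which act on transcription through the coactivator PGC-1α and the nuclear receptors it works with, the oestrogen-related receptors (ERR) and the peroxisome proliferator-activated receptors (PPAR). Heat, oxidants and mechanical strain call on chaperones, antioxidant enzymes and proteins that patch the sarcomere, while adrenal glucocorticoids rise during hard exercise and act on muscle through their own receptor. Many muscle genes also follow the circadian clock.

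TPM values hold no depth, so the number of reads behind a value is unknown. The 6 libraries summed to between 997697 and 997855 TPM and had between 11201 and 11632 gene symbols at 1 TPM or more. Genes of the mitochondrial genome took 42.2% to 46.9% of the TPM in sedentary and 45.7% to 47.0% in trained 6 h libraries, and this share scales every other value. The median SD of a gene between replicates was 0.127 on the log2 scale in sedentary and 0.119 in trained 6 h muscle. Muscle fibre markers were checked against the labelled tissue and summed to between 50096.7 and 59230.2 TPM in the 6 libraries. In several stress genes, trained 6 h replicate 1 stood above the other trained 6 h libraries, and the values without it are given where it decides a result.

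Of the 11701 genes tested, 454 (3.88%) were called, with a limma adjusted p below 0.05 and a change of at least 1.5-fold on the log2 scale of TPM plus 0.5. Of these, 289 (2.47% of genes tested) were upregulated and 165 (1.41%) downregulated in trained muscle 6 h post-exercise compared to sedentary. The median log2 fold change over all tested genes was -0.01. An unadjusted p below 0.05 was reached by 2969 of the 11701 genes, and list counts at that level are to be read against this share. Among called genes the median size of the change was 0.79, and 143 changed at least 2-fold, 110 of them upwards. The 6 libraries fell into 2 groups without overlap for 442 of the 454 called genes, against 28.8% of all genes tested. By annotation 356 called genes were protein-coding (235 higher, 121 lower), 54 were long non-coding RNAs and 20 were small RNAs, and 82 called genes were non-coding genes with no name beyond a predicted one. With TPM rescaled to protein-coding nuclear genes, 343 of 9653 genes were called higher and 112 lower, so that 75.4% of calls were rises, against 63.7% with TPM as deposited. When only these 6 libraries were fitted, 259 genes were called, and 40 of the 96 called genes named here lost their call. These 40 were Ache, Ankrd23, Aplnr, Atf3, Atg7, Cldn5, Col15a1, Col3a1, Col5a1, Cox6a1, Dusp26, Fggy, Flnc, Fst, Gabarapl1, Gbe1, Hsp90aa1, Hspa1b, Hspb1, Hspb7, Hspb8, Igfbp5, Il15, Mylk4, Nop2, Odc1, Pde4b, Per1, Plin5, Ppp1r3c, Rcan1, Sgk1, Sln, Smim27, Srxn1, Tead1, Timm8a1, Xirp1, Zfp36 and mt-Td.

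**Figure D1:**
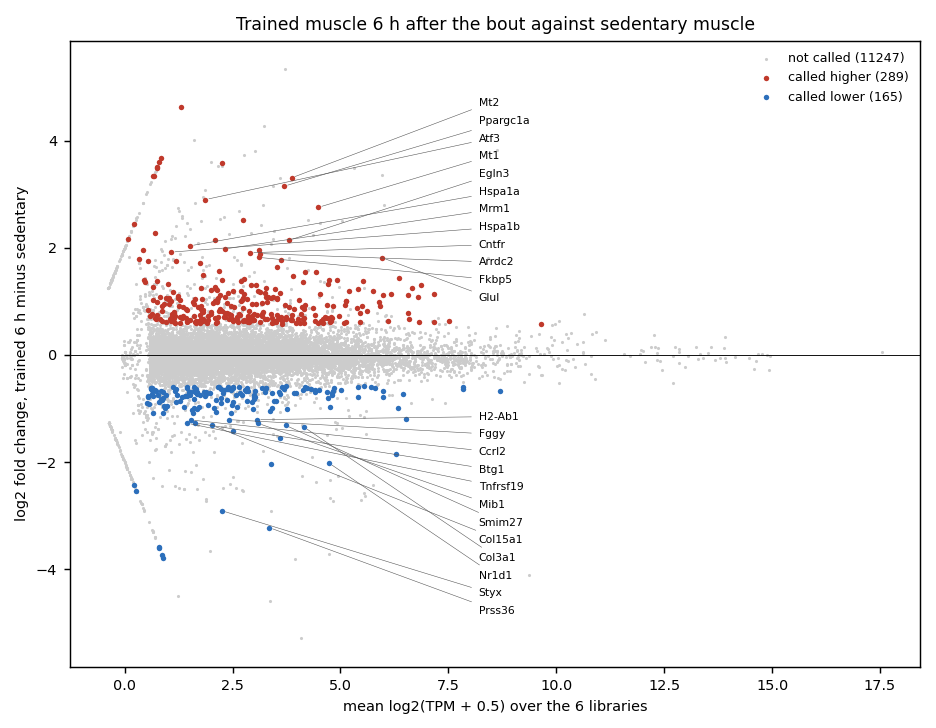
Log2 fold change of trained 6 h minus sedentary muscle (vertical axis) against the mean log2(TPM + 0.5) over the 6 libraries (horizontal axis) for the 11701 genes tested. Red points are the 289 genes called higher, blue points the 165 called lower and grey points the rest, with lines to the 12 steepest rises and 12 steepest falls of protein-coding genes, from Mt2 and Ppargc1a at the top to Styx and Prss36 at the bottom.

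The regulators of mitochondrial gene expression rose in part. Of the 18 genes in a list of PGC-1 and ERR regulators, 4 were called higher and none lower, 10 were higher at an unadjusted p below 0.05, and the median log2 fold change was 0.26. Ppargc1a (chr5:51611592-51725068, GRCm39), which encodes PGC-1α, was at 3.04, 4.30 and 4.34 TPM in the sedentary and at 48.6, 29.1 and 39.2 TPM in the trained 6 h libraries. It was 8.88-fold higher (log2 fold change 3.15, SE 0.20, adjusted p 3.29e-06). At 4.37, 4.04 and 3.72 TPM, trained muscle at 72 h overlapped the sedentary libraries. Esrrg (chr1:187340988-187947082), encoding ERRγ, an orphan nuclear receptor of oxidative muscle, was at 3.18, 4.14 and 3.70 TPM in sedentary and at 11.9, 10.9 and 9.15 TPM in trained 6 h muscle (log2 fold change 1.41, SE 0.12, adjusted p 3.03e-05). Esrrb (chr12:86407887-86568409), encoding its relative ERRβ, was at 0.975, 1.26 and 1.34 and at 2.55, 2.19 and 2.57 TPM (log2 fold change 0.80, SE 0.12, adjusted p 0.00106). Neither receptor had a trained 6 h library within the range of any of the other groups shown for it. Nrip1, encoding the corepressor RIP140, rose as well (log2 fold change 0.73, SE 0.18, adjusted p 0.0205). Nrip1 lost its call without sedentary replicates 1 or 2 or trained 6 h replicates 1 or 3 (log2 fold change 0.65 to 0.72, adjusted p 0.0619 to 0.0790). Esrra, encoding ERRα, and Perm1, a muscle target of PGC-1 and ERR, had adjusted p values of 0.00187 and 0.00143 but stayed under 1.5-fold, with log2 fold changes of 0.36 and 0.49. Ppargc1b, which encodes PGC-1β, was at 1.77 ± 0.211 TPM in sedentary and 1.64 ± 0.142 TPM in trained 6 h muscle (SD, n = 3).

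Esrrg and Esrrb also separated the training states at 6 h. Of the genes tested, 222 (1.90%) were called between trained and untrained muscle 6 h after the bout, 74 (0.632%) higher and 148 (1.26%) lower in trained muscle. This count fell to 17 (9 higher, 8 lower) with only those 6 libraries fitted, and was 142 without untrained 6 h replicate 2 and 380 without untrained 6 h replicate 1. With only those 6 libraries, of the genes named here as called in both comparisons, Hspa1a, Dusp18 and Styx kept this call. The split followed the scaling, with 158 higher and 102 lower on protein-coding nuclear genes and 144 higher and 126 lower on TPM rescaled without the mitochondrial genome and the 10 highest genes. In the PGC-1 and ERR list 2 genes were called higher in trained muscle and none lower. Esrrg was at 5.01, 4.07 and 3.60 TPM in untrained 6 h muscle (log2 difference 1.24, adjusted p 8.22e-05) and Esrrb at 1.19, 0.926 and 1.09 TPM (log2 difference 0.91, adjusted p 0.000897). Ppargc1a was at 22.3, 33.1 and 25.9 TPM there, and its difference did not pass the test (log2 difference 0.50, adjusted p 0.174). Between trained muscle at 6 h and at 72 h, 403 genes (3.44%) were called, 302 (2.58%) higher and 101 (0.863%) lower at 6 h, or 273 higher and 183 lower on TPM rescaled without the mitochondrial genome and the 10 highest genes. Ppargc1a, Esrrg and Esrrb were all higher at 6 h, by 3.09, 1.73 and 0.84 on the log2 scale with limma adjusted p values of 1.41e-06, 3.06e-06 and 0.000623.

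In a list of 30 tested PPAR targets and fatty acid oxidation genes, 3 were called higher, none lower, and the median log2 fold change was 0.17. Ppara (chr15:85618656-85687067), encoding PPARα, was at 1.45, 1.73 and 1.95 TPM in sedentary and 5.09, 3.74 and 5.65 TPM in trained 6 h libraries (log2 fold change 1.26, SE 0.24, adjusted p 0.00445). Untrained 6 h muscle had 1.51, 0.938 and 1.99 TPM, all below the trained 6 h libraries (log2 difference 1.45, adjusted p 0.00372). Lpin1 (chr12:16584818-16703913), encoding lipin-1, a phosphatidate phosphatase and coactivator of fat oxidation genes, rose from 41.0, 42.2 and 47.9 to 81.1, 80.1 and 86.7 TPM (log2 fold change 0.91, SE 0.08, adjusted p 3.03e-05). Plin5, which coats lipid droplets next to mitochondria, was at 5.66, 5.74 and 7.03 and 18.9, 13.9 and 9.43 TPM (log2 fold change 1.09, SE 0.26, adjusted p 0.0171). Its call was lost without sedentary replicates 1 or 2 or trained 6 h replicate 1 (log2 fold change 0.85 to 1.04, adjusted p 0.0553 to 0.0786). Pdk4, encoding the kinase that inhibits pyruvate dehydrogenase, was not called, at 181, 170.0 and 56.6 TPM in sedentary and 515, 167 and 86.6 TPM in trained 6 h libraries, which overlapped (log2 fold change 0.70, SE 0.63, adjusted p 0.534). Cpt1b, the muscle carnitine palmitoyltransferase, was at 98.9 ± 0.568 and 103 ± 10.4 TPM (SD, n = 3).

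Of 77 nuclear genes of oxidative phosphorylation, 1 was called, Cox6a1, a cytochrome c oxidase subunit (log2 fold change 0.74, SE 0.17, adjusted p 0.0126). Cox6a1 lost its call without sedentary replicate 1 or trained 6 h replicate 1 (log2 fold change 0.57, adjusted p 0.0577 to 0.0583). Unadjusted p values were below 0.05 for 3 of these 77 genes upwards and 11 downwards, and the median log2 fold change was -0.02, or 0.04 with TPM rescaled to protein-coding nuclear genes. No gene was called among 22 enzymes of the tricarboxylic acid cycle (6 higher and 2 lower at an unadjusted p below 0.05 with limma) or among 78 proteins of the mitochondrial ribosome (11 higher and 9 lower). Of 37 genes of the mitochondrial genome, 1 was called, the aspartate transfer RNA mt-Td, at 39.8, 19.6 and 27.99 TPM in sedentary and 72.7, 70.0 and 79.6 TPM in trained 6 h libraries (log2 fold change 1.39, SE 0.40, adjusted p 0.0389). Its call was lost without sedentary replicates 2 or 3 or trained 6 h replicates 1, 2 or 3 (log2 fold change 1.14 to 1.43, adjusted p 0.0741 to 0.134). At an unadjusted p below 0.05 with limma, 8 of the 37 were higher and none lower, against 2969 of all 11701 genes in either direction. Of 27 genes of mitochondrial import and biogenesis, 2 were called higher and none lower, and 11 were higher at an unadjusted p below 0.05. These were the small import chaperones Timm10, at 14.1, 13.8 and 15.8 TPM in sedentary and 29.7, 28.03 and 24.4 TPM in trained 6 h libraries (log2 fold change 0.89, SE 0.07, adjusted p 3.03e-05), and Timm8a1 (log2 fold change 0.70, SE 0.11, adjusted p 0.00106). Mrm1 (chr11:84702957-84710761), encoding a methyltransferase of mitochondrial ribosomal RNA, was among the 12 largest rises, from 1.63, 2.05 and 2.41 to 6.57, 12.3 and 10.2 TPM (log2 fold change 1.98, SE 0.49, adjusted p 0.0198). Mrm1 lost its call without sedentary replicates 1 or 2 or trained 6 h replicates 2 or 3 (log2 fold change 1.79 to 1.99, adjusted p 0.0527 to 0.0703).

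The metallothioneins, small cysteine-rich proteins that bind zinc and copper, gave some of the largest rises. Mt2 (chr8:94898819-94900207) was at 3.95, 4.88 and 3.69 TPM in sedentary and 69.1, 27.0 and 50.1 TPM in trained 6 h libraries, 9.89-fold higher (log2 fold change 3.31, SE 0.42, adjusted p 0.000360). Mt1 (chr8:94905710-94906955), its neighbour on the same strand, was at 6.51, 9.04 and 9.12 and 69.4, 44.0 and 63.2 TPM (log2 fold change 2.76, SE 0.27, adjusted p 7.58e-05). The lowest trained 6 h library exceeded the highest sedentary library in both genes. Untrained 6 h muscle overlapped trained 6 h muscle in both, with 26.9, 61.4 and 114 TPM of Mt2 and 51.0, 62.5 and 122 TPM of Mt1, while trained muscle at 72 h was at 6.06, 3.65 and 3.02 and 11.5, 9.67 and 9.21 TPM. Of 9 tested metallothionein and zinc transporter genes, 3 were called higher and none lower, the third being Slc39a14, the zinc importer ZIP14, at 2.81, 2.22 and 2.17 TPM in sedentary and 5.86, 5.02 and 7.84 TPM in trained 6 h muscle (log2 fold change 1.203, SE 0.22, adjusted p 0.00367).

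The promoters of both metallothionein genes are shown because the family is known for its metal response elements, the sites of the zinc-sensing factor MTF-1. The sequences are from RefSeq on GRCm38.p6 and run from 250 bases before to 50 bases after the gene start, 5′ to 3′ on the gene's strand. Capitals mark matches to the element's core, TGCACNC or TGCGCNC, on either strand. Mt2 (chr8:94172368-94172667, plus strand) held 4 matches and Mt1 (chr8:94178839-94179138, plus strand) held 3.
Mt2: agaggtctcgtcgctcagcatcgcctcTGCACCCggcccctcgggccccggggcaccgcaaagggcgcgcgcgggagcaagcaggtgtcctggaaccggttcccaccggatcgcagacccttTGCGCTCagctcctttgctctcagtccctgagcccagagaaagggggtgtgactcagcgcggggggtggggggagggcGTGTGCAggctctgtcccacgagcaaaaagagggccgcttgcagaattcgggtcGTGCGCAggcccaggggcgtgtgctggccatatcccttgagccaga
Mt1: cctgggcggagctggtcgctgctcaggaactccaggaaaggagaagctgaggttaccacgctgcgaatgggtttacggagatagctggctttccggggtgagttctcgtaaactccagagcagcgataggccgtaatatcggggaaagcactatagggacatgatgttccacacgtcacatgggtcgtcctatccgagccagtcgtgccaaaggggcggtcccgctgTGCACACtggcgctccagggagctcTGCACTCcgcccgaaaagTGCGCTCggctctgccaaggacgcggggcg
At least 3 matches stood in 1.97% of 32851 promoters of this length, in 3.27% of 10468 promoters of the genes tested, in 3.07% of 293 promoters of genes called higher and in 2.07% of 145 of genes called lower. The share among upregulated genes was thus near that of all tested genes. A match is only a run of letters and says nothing of whether the site was bound.

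Genes known to respond to glucocorticoids formed the list with the highest median. Of 17 tested, 8 were called higher and none lower, 11 were higher at an unadjusted p below 0.05, and the median log2 fold change was 0.74, against -0.01 over all genes. The 8 include both metallothioneins and the clock gene Per1, which belong to other lists as well. Fkbp5 (chr17:28618058-28737521), a co-chaperone that damps the glucocorticoid receptor, was at 4.13, 4.27 and 3.82 TPM in sedentary and 11.2, 16.8 and 20.3 TPM in trained 6 h libraries (log2 fold change 1.82, SE 0.20, adjusted p 0.000146). Glul (chr1:153775690-153785469), the glutamine synthetase, was at 28.4, 32.2 and 38.6 and 99.8, 139.8 and 114 TPM (log2 fold change 1.82, SE 0.17, adjusted p 6.28e-05). Trained muscle at 72 h lay between these levels for both, at 6.78, 5.35 and 5.99 TPM of Fkbp5 and 62.1, 60.6 and 56.0 TPM of Glul. Ddit4, encoding REDD1, an inhibitor of the growth kinase complex mTORC1, rose from 1.03, 1.33 and 1.71 to 5.69, 5.21 and 5.78 TPM (log2 fold change 1.72, SE 0.30, adjusted p 0.00286). Pik3r1, the regulatory subunit of PI3-kinase, rose from 2.28, 2.68 and 2.90 to 5.22, 6.35 and 6.61 TPM (log2 fold change 1.07, SE 0.15, adjusted p 0.000681). Sgk1, the serum- and glucocorticoid-regulated kinase, had overlapping groups, with 24.7, 29.9 and 47.8 TPM in sedentary and 47.0, 51.0 and 77.0 TPM in trained 6 h libraries (log2 fold change 0.79, SE 0.24, adjusted p 0.0478). Sgk1 lost its call without sedentary replicates 1 or 2 or trained 6 h replicates 1, 2 or 3 (log2 fold change 0.57 to 0.92, adjusted p 0.0533 to 0.182). Tsc22d3, which encodes the glucocorticoid-induced leucine zipper, missed the threshold (log2 fold change 0.56, SE 0.18, adjusted p 0.0646), and so did Klf15 (log2 fold change 0.13, SE 0.15, adjusted p 0.643). None of the 17 was called between trained and untrained muscle at 6 h, while 5 were called higher in trained muscle at 6 h than at 72 h. The time of sacrifice is not given, so hour of day and exercise cannot be told apart in this list.

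**Figure D2:**
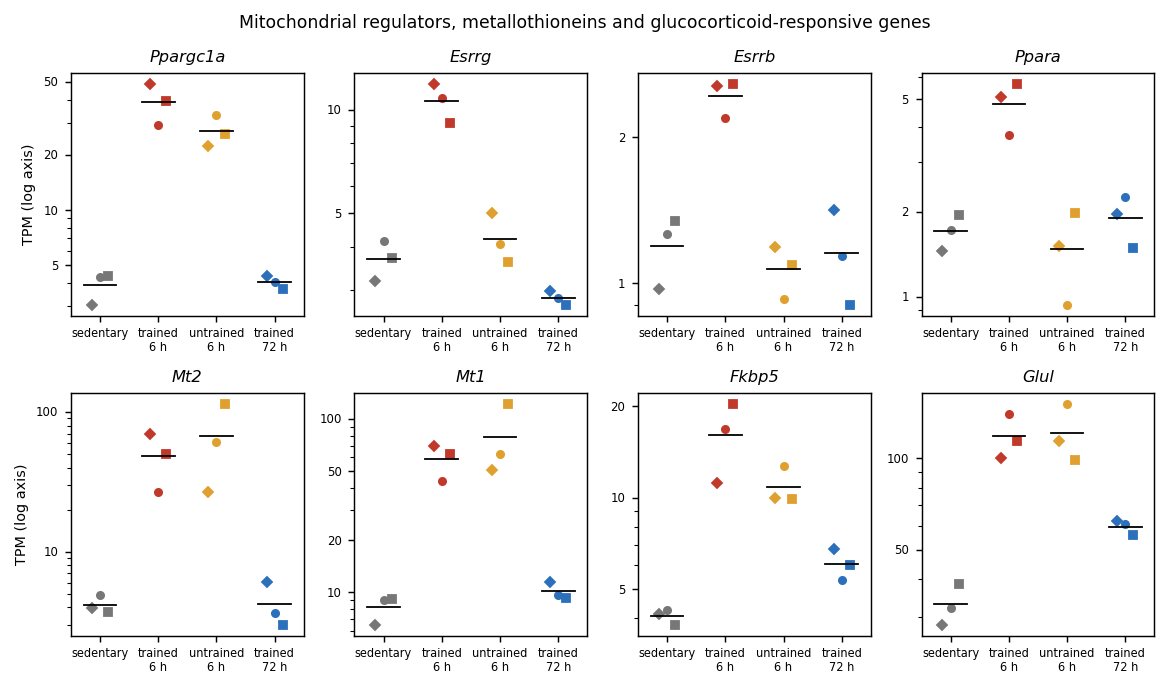
TPM on a log axis of 8 genes in sedentary, trained 6 h, untrained 6 h and trained 72 h muscle, with replicate 1 as a diamond, replicate 2 as a circle, replicate 3 as a square and the mean as a black bar. All 3 trained 6 h libraries lie above the sedentary libraries in each panel, untrained 6 h muscle stays near the sedentary level in Esrrg, Esrrb and Ppara, and it overlaps trained 6 h muscle in Ppargc1a, Mt2, Mt1, Fkbp5 and Glul.

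Chaperone genes were called higher than in sedentary muscle and lower than in untrained muscle at the same hour. Of 29 tested heat shock proteins and cofactors, 8 were called higher and none lower, 18 were higher and 3 lower at an unadjusted p below 0.05, and the median log2 fold change was 0.46. Between trained and untrained muscle at 6 h, 15 of the 29 were called lower in trained muscle and none higher, and 12 were called higher in trained muscle at 6 h than at 72 h. Hspa1a (chr17:35188166-35191132) and Hspa1b (chr17:35175412-35178214) encode the inducible HSP70 and are near-identical copies, so the division of reads between them is uncertain. Hspa1a was at 0.725, 0.888 and 1.15 TPM in sedentary and 8.73, 4.03 and 4.14 TPM in trained 6 h libraries (log2 fold change 2.04, SE 0.36, adjusted p 0.00309). Hspa1b was at 0.501, 0.608 and 0.659 and 7.92, 2.51 and 2.25 TPM (log2 fold change 1.92, SE 0.40, adjusted p 0.00814). In untrained 6 h muscle they were at 89.0, 151 and 108 and at 102, 181 and 124 TPM, with limma log2 differences of -4.29 (adjusted p 3.18e-05) and -5.01 (adjusted p 1.98e-05). No trained 6 h library reached the untrained 6 h range in either gene.

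Hsp90aa1 (chr12:110656842-110669166), the inducible HSP90, was at 9.13, 16.2 and 12.0 TPM in sedentary and 57.5, 28.1 and 30.04 TPM in trained 6 h muscle (log2 fold change 1.55, SE 0.30, adjusted p 0.00464). Hspb1 (chr5:135916760-135918417), the small chaperone HSP27 that protects actin filaments, was at 71.1, 73.7 and 85.0 and 238, 140.0 and 126 TPM (log2 fold change 1.07, SE 0.23, adjusted p 0.0101). Trained 6 h replicate 1 was the highest of its group in both genes, and without it their log2 fold changes were 1.23 and 0.79, with limma adjusted p values of 0.0210 and 0.0390. Hspb7, a small chaperone of heart and muscle, rose by 1.31 on the log2 scale (limma adjusted p 0.00509). Bag3, the co-chaperone that hands damaged filamin to autophagy, rose from 22.2, 23.8 and 27.1 to 57.5, 46.8 and 45.3 TPM (log2 fold change 1.01, SE 0.14, adjusted p 0.000660). Hspb8, its small chaperone partner, went from 147 ± 6.90 to 229 ± 31.1 TPM (SD, n = 3; log2 fold change 0.63, SE 0.13, adjusted p 0.00813). It was no longer called without trained 6 h replicates 1 or 3 (log2 fold change 0.57 to 0.58, adjusted p 0.0354 to 0.0387). Hsph1, the HSP110 exchange factor, was at 18.5, 17.9 and 18.2 TPM in sedentary and 34.3, 30.9 and 40.6 TPM in trained 6 h libraries (log2 fold change 0.92, SE 0.16, adjusted p 0.00267). Dnajb1, an HSP40 that is strongly heat-inducible, was at 1.38, 1.00 and 1.21 TPM in trained 6 h muscle and 14.3, 20.2 and 16.0 TPM in untrained 6 h muscle, against 0.753, 0.761 and 1.32 TPM in sedentary muscle. It was not called against the sedentary group (log2 fold change 0.25, SE 0.21, adjusted p 0.519).

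The promoters of Hsph1 and Hspb1 are shown because heat shock factor binds inverted repeats of a short element. These promoters held the most pairs among the called chaperones that could be scored. Hsp90aa1 had no promoter in the sequence set used, so its number of pairs is unknown. Capitals mark GAANNTTC or TTCNNGAA, each its own reverse complement, in RefSeq sequences on GRCm38.p6 of the same span as above. Hsph1 (chr5:149636287-149636586, minus strand) held 3 matches, of which 2 overlap, and Hspb1 (chr5:135887669-135887968, plus strand) held 2.
Hsph1: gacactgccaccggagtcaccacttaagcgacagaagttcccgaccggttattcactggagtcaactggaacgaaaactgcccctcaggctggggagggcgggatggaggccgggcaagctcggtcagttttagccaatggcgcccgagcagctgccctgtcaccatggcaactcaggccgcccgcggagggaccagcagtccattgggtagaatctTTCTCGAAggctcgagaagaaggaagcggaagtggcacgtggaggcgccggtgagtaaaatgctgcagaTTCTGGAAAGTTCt
Hspb1: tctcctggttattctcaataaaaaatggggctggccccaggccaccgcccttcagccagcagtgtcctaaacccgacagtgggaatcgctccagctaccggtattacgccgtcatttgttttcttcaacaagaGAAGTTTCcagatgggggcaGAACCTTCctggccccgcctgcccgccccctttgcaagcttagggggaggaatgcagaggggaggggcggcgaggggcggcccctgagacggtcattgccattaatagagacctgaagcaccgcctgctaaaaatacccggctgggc
Hspa1a, Hspa1b, Hspb8 and Bag3 held 1 match each and Hspb7 held 0 in this window. At least 2 matches stood in 1.96% of 32851 promoters, in 1.42% of those of tested genes, in 3.07% of those of genes called higher and in 2.76% of those of genes called lower. A promoter without a match may hold the element outside this window or in other letters.

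Some stress transcripts outside the chaperones were called as well. Of 21 tested immediate early genes, 4 were called higher against sedentary muscle and none lower, the median log2 fold change was 0.11, and 8 were called lower in trained muscle than at the same hour in untrained muscle. Atf3 (chr1:190902493-190950241), a stress-induced transcription factor, was at 0.744, 0.948 and 0.829 TPM in sedentary, 32.5, 6.94 and 3.56 TPM in trained 6 h and 109, 149 and 68.9 TPM in untrained 6 h libraries. The log2 fold change over sedentary muscle was 2.90 (SE 0.55, limma adjusted p 0.00438) and 2.04 (adjusted p 0.00464) without trained 6 h replicate 1, which was at several times the level of the other trained 6 h libraries. Nr4a3 (chr4:48045153-48086447), encoding the orphan receptor NOR-1, which is induced by muscle contraction, was at 0.0705, 0.396 and 0.115 TPM in sedentary and 2.76, 1.34 and 1.63 TPM in trained 6 h libraries (log2 fold change 1.78, SE 0.26, adjusted p 0.000855). Zfp36, which destabilises inflammatory messages, and Cebpb, a transcription factor of stress and fat genes, were called higher by 0.62 and 0.74 on the log2 scale, and both calls were fragile. The call of Zfp36 was lost without sedentary replicates 1 or 2 or trained 6 h replicates 1, 2 or 3 (log2 fold change 0.48 to 0.68, adjusted p 0.0662 to 0.171). That of Cebpb was lost without sedentary replicates 1 or 2 or trained 6 h replicates 1, 2 or 3 (log2 fold change 0.68 to 0.82, adjusted p 0.0557 to 0.106). Fos and Egr1, the classical early genes, were not called against sedentary muscle, with 1.22, 0.938 and 0.968 TPM of Fos against 0.320, 0.588 and 3.44 TPM in sedentary libraries. Egr1 was at 1.86, 0.715 and 0.699 TPM against 0.489, 0.627 and 3.10 TPM. Both were lower than in untrained 6 h muscle, by -2.93 and -2.41 on the log2 scale (limma adjusted p 0.00460 and 0.0279). Counted without trained 6 h replicate 1, 2 immediate early genes and 7 chaperone genes were called higher against sedentary muscle.

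Genes of the strained sarcomere were called in both directions. Of 22 tested genes of muscle ankyrin repeat proteins and mechanosensing, 2 were called higher and 1 lower against sedentary muscle, 9 were called lower in trained muscle than at the same hour in untrained muscle, and 6 were called higher at 6 h than at 72 h. Flnc (chr6:29433072-29461887), the filamin that marks Z-disc lesions, was at 42.7, 40.4 and 43.1 TPM in sedentary, 122, 75.0 and 63.8 TPM in trained 6 h and 232, 302 and 262 TPM in untrained 6 h libraries (log2 fold change 0.98, SE 0.18, adjusted p 0.00319 against sedentary). Xirp1 (chr9:119842821-119852664), an actin-binding protein of injured fibres, was at 14.8, 29.1 and 13.7 and 94.5, 37.9 and 31.4 TPM in sedentary and trained 6 h libraries (log2 fold change 1.39, SE 0.39, adjusted p 0.0367). Xirp1 lost its call without sedentary replicates 1 or 3 or trained 6 h replicate 1 (log2 fold change 0.91 to 1.25, adjusted p 0.116 to 0.140). Ankrd1, a stretch-responsive nuclear protein, spanned 20.5, 5.22 and 2.47 TPM in the trained 6 h libraries and was not called against sedentary muscle (log2 fold change 1.43, SE 0.53, adjusted p 0.103). It lay below the 96.4, 175 and 68.8 TPM of untrained 6 h muscle (log2 difference -3.90, adjusted p 0.00104). Ankrd23, a titin-bound member of the same family, was the member called lower, at 554, 479 and 542 TPM in sedentary and 389.6, 304 and 304 TPM in trained 6 h muscle (log2 fold change -0.66, SE 0.12, adjusted p 0.00291).

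**Figure D3:**
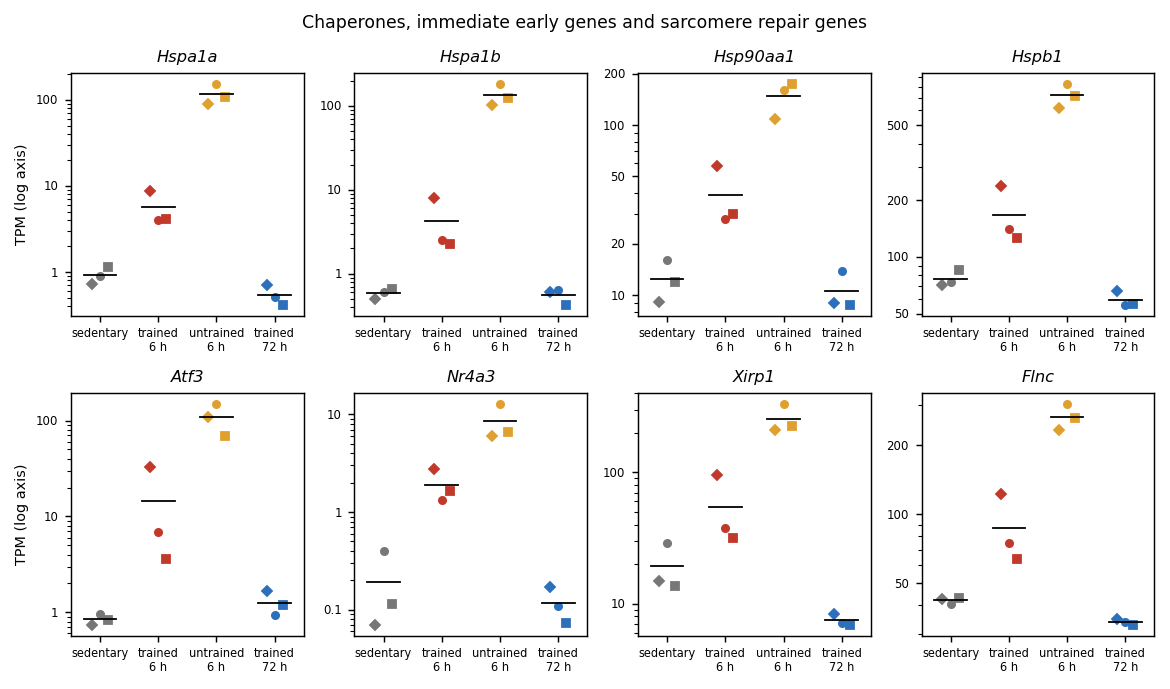
TPM on a log axis of 4 chaperone genes, 2 immediate early genes and 2 sarcomere genes in 4 groups, with the symbols of replicates 1, 2 and 3 as a diamond, a circle and a square and the mean as a black bar. In every panel the trained 6 h libraries lie between the sedentary and the untrained 6 h libraries without overlap, and the diamond of trained 6 h replicate 1 is the highest of its group.

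Antioxidant genes moved in both directions. In a list of 20 genes of the NRF2 antioxidant response, 3 were called higher and 1 lower against sedentary muscle, and 3 were called lower in trained muscle than at the same hour in untrained muscle. Srxn1, the sulfiredoxin that restores oxidised peroxiredoxins, was at 4.49, 8.54 and 6.11 TPM in sedentary and 24.8, 14.3 and 31.4 TPM in trained 6 h libraries (log2 fold change 1.77, SE 0.29, adjusted p 0.00177). Hmox1, the haem oxygenase, rose from 2.54, 2.56 and 2.27 to 5.62, 4.29 and 6.18 TPM (log2 fold change 0.98, SE 0.15, adjusted p 0.00122), and Txnrd1, the cytosolic thioredoxin reductase, by 0.74 on the log2 scale (limma adjusted p 0.00215). Gpx3 (chr11:54793279-54802424), the secreted glutathione peroxidase, was the member that fell, from 117, 110.2 and 111 to 68.3, 67.9 and 67.3 TPM (log2 fold change -0.73, SE 0.12, adjusted p 0.00233). Its trained 6 h libraries lay within a narrow range below all sedentary and untrained 6 h libraries, the latter at 82.7, 129 and 105 TPM (log2 difference -0.61, adjusted p 0.0126), and overlapped those of trained muscle at 72 h (log2 difference -0.14, adjusted p 0.566). The unfolded protein response had no called gene among 21, with 4 higher and none lower at an unadjusted p below 0.05 with limma. The integrated stress response had none among 13, with 4 higher and 1 lower. With TPM rescaled to protein-coding nuclear genes, 2 of the former and 1 of the latter were called higher.

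A few enzymes of glucose handling rose. In a list of 23 genes of glucose uptake and glycogen, 3 were called higher, none lower, and the median log2 fold change was 0.20. Hk2 (chr6:82699740-82751469), the hexokinase that traps glucose in the fibre, was at 46.7, 50.3 and 50.5 TPM in sedentary and 152, 127 and 124 TPM in trained 6 h libraries (log2 fold change 1.44, SE 0.24, adjusted p 0.00194). Trained muscle at 72 h had 33.8, 37.7 and 60.0 TPM. Ppp1r3c, a subunit that directs a phosphatase to glycogen, was at 51.0, 67.5 and 76.3 and 115, 131 and 183 TPM (log2 fold change 1.12, SE 0.29, adjusted p 0.0232). Ppp1r3c lost its call without sedentary replicates 1 or 2 or trained 6 h replicate 3 (log2 fold change 0.93 to 1.16, adjusted p 0.0522 to 0.0961). Gbe1, the glycogen branching enzyme, rose by 0.65 (adjusted p 0.00525), but fell short of the fold threshold without sedentary replicate 1 or trained 6 h replicate 1 (log2 fold change 0.56 to 0.58, adjusted p 0.0291 to 0.0299). Slc2a4, the insulin-responsive transporter GLUT4, was at 181 ± 14.1 TPM in sedentary and 197 ± 17.6 TPM in trained 6 h muscle (SD, n = 3; log2 fold change 0.12, SE 0.07, adjusted p 0.273). Of 20 glycolytic enzymes, 3 were called higher and none lower. Pfkfb2 and Pfkfb4, which set the level of the glycolytic activator fructose 2,6-bisphosphate, rose by 0.92 and 0.89 on the log2 scale (limma adjusted p 0.000184 and 0.000263). Pgam1, the non-muscle phosphoglycerate mutase, rose from 4.34, 5.35 and 5.45 to 11.4, 9.06 and 10.1 TPM (log2 fold change 0.95, SE 0.13, adjusted p 0.000617). Arrdc2 (chr8:71287770-71292364), an alpha-arrestin related to the glucose uptake inhibitor TXNIP, rose from 3.48, 3.18 and 5.90 to 11.4, 16.9 and 22.7 TPM (log2 fold change 1.89, SE 0.31, adjusted p 0.00194) and was the called member of 5 alpha-arrestin genes. Txnip itself was at 282, 248 and 197 and 409, 263 and 295 TPM (log2 fold change 0.40, SE 0.28, adjusted p 0.412).

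Egln3 (chr12:54225767-54250673), the prolyl hydroxylase PHD3 that marks hypoxia-inducible factors for decay, was among the 12 largest rises and higher than in both other exercised groups. It was at 4.64, 7.19 and 7.05 TPM in sedentary, 31.3, 31.8 and 24.5 TPM in trained 6 h, 15.0, 7.43 and 12.9 TPM in untrained 6 h and 8.09, 6.75 and 5.44 TPM in trained 72 h libraries. The log2 fold change over sedentary muscle was 2.14 (SE 0.25, limma adjusted p 0.000186), and the log2 difference from untrained 6 h muscle was 1.32 (adjusted p 0.00715). Of 20 angiogenic and hypoxia genes Egln3 was called higher and Aplnr, the apelin receptor, lower (log2 fold change -0.63, SE 0.12, adjusted p 0.00528). Aplnr was not called without sedentary replicate 2 (log2 fold change -0.53, adjusted p 0.0204). Vegfa, the main vessel growth factor, was at 87.1 ± 5.82 TPM in sedentary and 98.1 ± 9.65 TPM in trained 6 h muscle (SD, n = 3; log2 fold change 0.17, SE 0.09, adjusted p 0.253).

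Genes of growth control were called in both directions. Mtor, the kinase itself, rose from 3.08, 3.60 and 3.49 to 5.65, 5.98 and 5.99 TPM (log2 fold change 0.71, SE 0.09, adjusted p 0.000401) and was the called member of 21 genes of AMPK and mTOR regulation. Cdkn1a, encoding the cell cycle inhibitor p21, rose from 3.36, 3.31 and 3.78 to 10.3, 10.1 and 9.26 TPM (log2 fold change 1.39, SE 0.18, adjusted p 0.000333). Of 14 genes of the p53 response and growth arrest, Cdkn1a and Gadd45a were called higher and Btg1, given below, lower. Gadd45a, a stress sensor, rose by 0.68 (adjusted p 0.00641). It was not called without trained 6 h replicate 3 (log2 fold change 0.58, adjusted p 0.0317). Odc1, the first enzyme of polyamine synthesis, rose from 48.7, 47.5 and 48.2 to 80.7, 101 and 147 TPM (log2 fold change 1.13, SE 0.18, adjusted p 0.00178). It and Sat1 were the called members of 12 polyamine genes. Sat1, which acetylates polyamines for export, rose by 0.59 (adjusted p 0.00295). It lost the call without sedentary replicate 2 or trained 6 h replicate 1 (log2 fold change 0.51 to 0.56, adjusted p 0.0143 to 0.0162). Of 30 genes of ribosome biogenesis, Nop2 and Rrp12, which act in the processing of ribosomal RNA, were called higher (0.71, adjusted p 0.00416 and 0.65, adjusted p 0.00230 with limma) and none lower. Rescaling to protein-coding nuclear genes gave 4 called higher in that list. The 82 tested proteins of the cytosolic ribosome held no called gene, with 1 higher and 22 lower at an unadjusted p below 0.05 with limma and a median log2 fold change of -0.13. The proteasome held none among 37, with 2 higher and 1 lower at that level.

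The neuromuscular junction and the second messenger cAMP gave rises and falls within 1 list each. Musk (chr4:58285931-58377847), the receptor kinase that clusters acetylcholine receptors, rose from 1.98, 1.82 and 2.69 to 7.77, 6.66 and 7.70 TPM (log2 fold change 1.58, SE 0.22, adjusted p 0.000622). Dok7, its cytoplasmic activator, rose from 3.01, 3.04 and 3.61 to 6.83, 6.83 and 6.62 TPM (log2 fold change 0.97, SE 0.12, adjusted p 0.000329). Ache, the acetylcholinesterase of the synapse, fell from 13.7, 14.8 and 17.2 to 7.51, 10.5 and 9.10 TPM (log2 fold change -0.73, SE 0.16, adjusted p 0.0101). These were the called members of 15 junction genes, and Chrna1, the receptor subunit, was at 1.90 ± 0.346 TPM in sedentary and 1.72 ± 0.173 TPM in trained 6 h muscle (SD, n = 3). Crem, a transcription factor responsive to cAMP, rose from 3.43, 4.59 and 5.31 to 14.4, 9.58 and 11.2 TPM (log2 fold change 1.30, SE 0.19, adjusted p 0.00105). Among the phosphodiesterases that break down cAMP, Pde4d rose by 0.71 on the log2 scale (limma adjusted p 0.00385) and Pde4b fell by 0.69 (adjusted p 0.0395). Pde4b was not called without sedentary replicates 1, 2 or 3 or trained 6 h replicates 1 or 3 (log2 fold change -0.57 to -0.76, adjusted p 0.0600 to 0.138). These were the called members of 20 genes of CREB signalling. Cntfr (chr4:41657498-41697089), the receptor subunit for ciliary neurotrophic factor, was among the 12 largest rises, from 2.84, 3.44 and 3.91 to 15.7, 11.8 and 14.8 TPM (log2 fold change 1.91, SE 0.20, adjusted p 0.000105). Untrained 6 h muscle had a like level of 14.4, 12.9 and 17.0 TPM.

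Of 29 genes of calcium handling, 2 were called higher and none lower, although at an unadjusted p below 0.05 with limma 3 were higher and 10 lower. Their median log2 fold change was -0.14. Rcan1 (chr16:92188840-92267755), a feedback inhibitor of the phosphatase calcineurin, rose from 23.0, 27.0 and 22.3 to 79.1, 40.2 and 53.03 TPM (log2 fold change 1.19, SE 0.21, adjusted p 0.00291). These levels were below the 118, 133 and 136 TPM of untrained 6 h muscle (log2 difference -1.21, adjusted p 0.00464). Sln (chr9:53742537-53761846), encoding sarcolipin, which uncouples the calcium pump of the sarcoplasmic reticulum, had the opposite order, with 1.49, 1.09 and 2.346 TPM in sedentary, 8.05, 5.57 and 3.41 TPM in trained 6 h and 0.775, 1.30 and 0.483 TPM in untrained 6 h libraries. Its log2 fold change over sedentary muscle was 1.498 (SE 0.33, limma adjusted p 0.0112) and its difference from untrained muscle was 2.17 (adjusted p 0.00238). The first was not called without trained 6 h replicate 1 (log2 fold change 1.23, adjusted p 0.0541). Dusp18, a dual-specificity phosphatase, likewise stood above both groups, at 1.86, 3.26 and 3.06 TPM in sedentary, 6.89, 6.15 and 6.10 TPM in trained 6 h and 1.58, 1.78 and 1.76 TPM in untrained 6 h libraries (log2 fold change 1.12, SE 0.17, adjusted p 0.00108 against sedentary). Dusp26, of the same family, fell (log2 fold change -0.65, SE 0.14, adjusted p 0.0104). It fell short of the required fold without trained 6 h replicate 3 (log2 fold change -0.49, adjusted p 0.0407). Nfkbia, the inhibitor of NF-κB, rose from 5.85, 7.08 and 6.36 to 12.9, 13.4 and 16.1 TPM (log2 fold change 1.08, SE 0.13, adjusted p 0.000210) and was the called member of 15 genes of NF-κB and STAT3 signalling.

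The clock gene Nr1d1 (chr11:98658752-98666188), encoding the repressor REV-ERBα, gave the largest fall of a protein-coding gene after Styx and Prss36, described below. It was at 54.8, 53.8 and 51.2 TPM in sedentary and 15.2, 13.7 and 9.97 TPM in trained 6 h libraries, 4.06-fold lower (log2 fold change -2.02, SE 0.15, adjusted p 2.05e-05). The trained 6 h libraries were below every library of untrained 6 h muscle, at 24.1, 31.2 and 27.4 TPM (log2 difference -1.08, adjusted p 0.00155), and of trained muscle at 72 h, at 37.2, 32.5 and 32.0 TPM (log2 difference -1.37, adjusted p 0.000147). Of 9 tested genes of the negative limb of the clock, Per1 and Cry2, which encode repressors of the CLOCK and BMAL1 pair, were called higher and Nr1d1 lower. Per1 was at 2.11, 1.19 and 2.73 TPM in sedentary and 3.86, 5.01 and 4.66 TPM in trained 6 h libraries (log2 fold change 1.04, SE 0.26, adjusted p 0.0188). Cry2 was at 6.17, 5.18 and 6.85 and 10.2, 10.1 and 11.03 TPM (log2 fold change 0.74, SE 0.15, adjusted p 0.00554). The call of Per1 was lost without sedentary replicate 2 or trained 6 h replicates 2 or 3 (log2 fold change 0.78 to 1.01, adjusted p 0.0591 to 0.0772). Usp2, a deubiquitinase under clock control, rose from 24.9, 20.5 and 28.5 to 40.7, 51.7 and 49.3 TPM (log2 fold change 0.93, SE 0.17, adjusted p 0.00329) and was the called member of 9 genes of clock activators and outputs. Arntl, which encodes BMAL1, was at 8.28 ± 1.44 TPM in sedentary and 6.20 ± 0.123 TPM in trained 6 h muscle (SD, n = 3; log2 fold change -0.38, SE 0.21, adjusted p 0.283). Dbp, an output gene, was at 24.1 ± 8.85 and 13.8 ± 1.77 TPM (log2 fold change -0.73, SE 0.32, adjusted p 0.166). Against trained muscle at 72 h, 4 of the 9 negative limb genes were called lower at 6 h. Since the time of sacrifice is not given, hour of day and exercise cannot be told apart in these genes.

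Part of the collagen genes fell. Of 18 tested collagen and matrix genes, 6 were called lower and none higher, 11 were lower at an unadjusted p below 0.05, and the median log2 fold change was -0.59. Col5a3 (chr9:20681337-20726418), a chain of fibrillar collagen V, was at 3.41, 4.08 and 4.09 TPM in sedentary and 1.53, 1.53 and 1.61 TPM in trained 6 h libraries (log2 fold change -1.08, SE 0.18, adjusted p 0.00236). Col15a1 (chr4:47207582-47313179), a collagen of basement membranes, was at 4.09, 9.78 and 5.21 and 2.25, 1.76 and 2.31 TPM (log2 fold change -1.32, SE 0.27, adjusted p 0.00700). Col6a2 (chr10:76429660-76459549), a chain of the collagen VI that surrounds fibres, was at 8.70, 9.65 and 9.04 and 4.43, 4.26 and 5.86 TPM (log2 fold change -0.86, SE 0.17, adjusted p 0.00515). Col3a1 (chr1:45350698-45395840), a major fibrillar collagen of the interstitium, was at 21.3, 44.1 and 23.3 and 7.97, 8.15 and 18.6 TPM (log2 fold change -1.35, SE 0.38, adjusted p 0.0369). Col5a1 and Col6a1 fell by 0.67 each on the log2 scale (limma adjusted p 0.0215 and 0.0155). Without trained 6 h replicate 1, 3 of the 6 remained called. Col3a1 was not called without sedentary replicates 2 or 3 or trained 6 h replicates 1 or 2 (log2 fold change -1.03 to -1.48, adjusted p 0.0542 to 0.138). Col5a1 was not called without sedentary replicate 2 or trained 6 h replicates 1 or 2 (log2 fold change -0.55 to -0.62, adjusted p 0.0674 to 0.0948) and Col6a1 not without sedentary replicate 2 or trained 6 h replicates 1 or 2 (log2 fold change -0.61 to -0.64, adjusted p 0.0536 to 0.0587). No member was called between trained and untrained muscle at 6 h, and 2 were called lower at 6 h than at 72 h. In bulk tissue, fewer cells of a type and less RNA per cell cannot be told apart. Markers of fibro-adipogenic cells, the main makers of collagen, summed to 300.1 to 342 TPM in sedentary and 293 to 334 TPM in trained 6 h libraries, with Col3a1 the called gene of 9. Most of these sums came from Dcn, at 219.5, 209 and 192 TPM in sedentary and 208, 206 and 225 TPM in trained 6 h libraries. At an unadjusted p below 0.05 with limma, 1 of the 9 was higher and 3 were lower. Tendon markers summed to 40.2 to 57.0 and 27.0 to 40.4 TPM, with none of 5 called. Their part in the fall of the collagens was not tested.

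**Figure D4:**
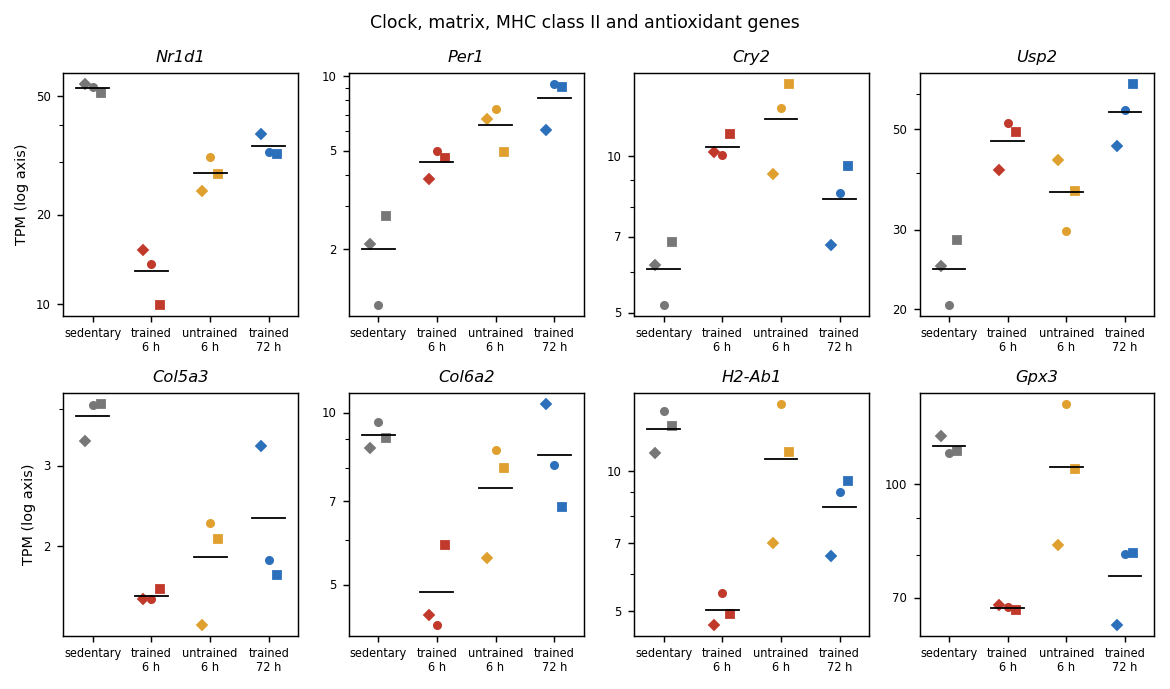
TPM on a log axis of 8 genes in 4 groups, with replicates 1, 2 and 3 as a diamond, a circle and a square and the mean as a black bar. Trained 6 h muscle is lower than sedentary muscle in Nr1d1, Col5a3, Col6a2, H2-Ab1 and Gpx3 and higher in Per1, Cry2 and Usp2, without overlap between these 2 groups, while untrained 6 h replicate 1 lies near the trained 6 h libraries in the 2 collagens and in H2-Ab1.

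Genes of secreted signals were called in both directions. Of 14 tested myokine genes, Metrnl, encoding meteorin-like, rose from 1.68, 2.06 and 1.93 to 3.73, 2.91 and 3.79 TPM (log2 fold change 0.73, SE 0.16, adjusted p 0.00903). Il15, encoding interleukin-15, and Fst, encoding the myostatin antagonist follistatin, fell (log2 fold change -1.09, SE 0.28, adjusted p 0.0238 and log2 fold change -0.65, SE 0.18, adjusted p 0.0382). In a list of 20 IGF and myostatin genes, Fst and Igfbp5, an IGF-binding protein, were called lower and none higher. Igfbp5 fell from 61.3, 66.6 and 78.2 to 38.5, 46.5 and 48.6 TPM (log2 fold change -0.62, SE 0.14, adjusted p 0.0130). Il15 was not called without sedentary replicates 1 or 2 or trained 6 h replicates 2 or 3 (log2 fold change -0.77 to -1.12, adjusted p 0.0584 to 0.0885). Fst was not called without sedentary replicates 1, 2 or 3 or trained 6 h replicates 1, 2 or 3 (log2 fold change -0.54 to -0.73, adjusted p 0.0522 to 0.121) and Igfbp5 not without sedentary replicate 3 or trained 6 h replicate 1 (log2 fold change -0.52, adjusted p 0.0530 to 0.0613). Tead1, a transcription factor of muscle genes, was the called member of 23 myogenic and MEF2 factors (log2 fold change -0.61, SE 0.16, adjusted p 0.0238). It was not called without sedentary replicates 2 or 3 or trained 6 h replicates 1, 2 or 3 (log2 fold change -0.51 to -0.63, adjusted p 0.0562 to 0.0867).

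Among protein breakdown genes the atrophy ligases were not called. Of 20 genes of atrophy ligases and FOXO factors, Asb14, a muscle ubiquitin ligase subunit, was called lower, from 53.8, 47.5 and 54.3 to 32.0, 34.2 and 35.5 TPM (log2 fold change -0.60, SE 0.07, adjusted p 0.000184). It fell short of the fold threshold without sedentary replicates 1 or 3 or trained 6 h replicate 1 (log2 fold change -0.56 to -0.58, adjusted p 0.000942 to 0.00150). Asb14 also lost its call under median-of-ratios scaling and on protein-coding nuclear genes. On the latter scaling, 1 gene of the list was called higher and none lower. Fbxo32, encoding atrogin-1, was at 42.0 ± 2.26 TPM in sedentary and 38.1 ± 3.65 TPM in trained 6 h muscle, and Trim63, encoding MuRF1, at 82.0 ± 2.60 and 93.1 ± 0.437 TPM (SD, n = 3). Their limma adjusted p values were 0.639 and 0.551. Of the 20 genes, 5 were higher and 7 lower at an unadjusted p below 0.05 with limma. An adjusted p below 0.05 was reached by 8 of the 20, with Asb14 the called gene. Of 28 autophagy genes, Gabarapl1, which coats autophagosomes, was called higher (log2 fold change 0.71, SE 0.15, adjusted p 0.0101) and Atg7, which activates such coats, lower (log2 fold change -0.69, SE 0.20, adjusted p 0.0427). Gabarapl1 was not called without trained 6 h replicate 1 (log2 fold change 0.45, adjusted p 0.00673) nor Atg7 without sedentary replicates 2 or 3 or trained 6 h replicates 1, 2 or 3 (log2 fold change -0.43 to -0.70, adjusted p 0.0863 to 0.143).

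The remaining large falls were of varied function. Ccrl2 (chr9:110883554-110886591), an atypical chemokine receptor, was at 3.91, 3.63 and 4.21 TPM in sedentary and 1.43, 1.38 and 1.39 TPM in trained 6 h libraries (log2 fold change -1.21, SE 0.16, adjusted p 0.000503). Tnfrsf19 (chr14:61201283-61284366), the TNF receptor family member TROY, was at 3.75, 3.84 and 3.68 and 1.36, 1.35 and 1.08 TPM (log2 fold change -1.27, SE 0.11, adjusted p 3.51e-05). Both lay near the sedentary level in trained muscle at 72 h, with 3.83, 3.13 and 3.82 and 4.27, 3.92 and 3.73 TPM. H2-Ab1 (chr17:34476663-34488393), a chain of the MHC class II molecule that presents antigen, was at 10.9, 13.5 and 12.5 and 4.68, 5.47 and 4.94 TPM (log2 fold change -1.21, SE 0.21, adjusted p 0.00254). It was lower than in untrained 6 h muscle as well (log2 difference -0.96, adjusted p 0.0179). Mib1, a ubiquitin ligase needed for Notch ligands, was at 12.8, 12.7 and 12.7 TPM in sedentary, 6.26, 5.39 and 3.61 TPM in trained 6 h and 10.7, 16.2 and 12.8 TPM in untrained 6 h libraries (log2 fold change -1.28, SE 0.24, adjusted p 0.00371 against sedentary).

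Prss36 (chr7:127531810-127545903), a serine protease, was at 28.02, 23.4 and 44.1 TPM in sedentary and 2.65, 2.84 and 3.04 TPM in trained 6 h libraries (log2 fold change -3.22, SE 0.91, adjusted p 0.0372). Its untrained 6 h libraries were at 3.22, 34.4 and 42.4 TPM and its trained 72 h libraries at 3.10, 20.5 and 3.13 TPM, so that both levels occurred within each of these groups. The call of Prss36 was lost without sedentary replicates 1, 2 or 3 or trained 6 h replicates 1, 2 or 3 (log2 fold change -2.97 to -3.42, adjusted p 0.0684 to 0.104). Styx (chr14:45588529-45660277), a pseudophosphatase, was at 15.9, 10.6 and 11.7 and 1.27, 1.10 and 1.36 TPM (log2 fold change -2.91, SE 0.71, adjusted p 0.0182). Untrained 6 h libraries had 9.14, 16.3 and 10.6 TPM and trained 72 h libraries 1.36, 1.47 and 1.53 TPM. Both of these trained groups thus lay below all sedentary and untrained 6 h libraries. The SE of 0.71 comes from all 7 groups fitted and is wide for the spread within the groups given here. Levels in the 0 h and untrained 72 h groups are not given, so a difference between training states at all times is not shown. Styx was not called without sedentary replicate 1 or trained 6 h replicate 1 (log2 fold change -2.74 to -2.92, adjusted p 0.0539 to 0.0662). Fggy (chr4:95445698-95815188), a carbohydrate kinase, was at 16.7, 6.43 and 3.94 and 3.34, 2.91 and 2.77 TPM (log2 fold change -1.21, SE 0.32, adjusted p 0.0285), sedentary replicate 1 being the highest. Btg1 (chr10:96452861-96458671), an antiproliferative factor, was at 4.07, 4.31 and 4.46 and 1.503, 1.44 and 1.51 TPM (log2 fold change -1.27, SE 0.38, adjusted p 0.0466). Smim27 (chr4:40269564-40271879), a small membrane protein, was at 15.2, 19.4 and 28.8 and 8.86, 7.94 and 7.03 TPM (log2 fold change -1.31, SE 0.32, adjusted p 0.0181). Untrained 6 h libraries had 3.22, 2.00 and 4.95 TPM of Btg1 and 8.52, 18.7 and 17.4 TPM of Smim27. Trained 72 h libraries had 3.65, 1.55 and 4.39 TPM of Btg1 and 18.8, 7.81 and 17.0 TPM of Smim27. Low and high libraries thus occurred within each of these groups for both genes, as for Prss36. Fggy was not called without trained 6 h replicates 1, 2 or 3 (log2 fold change -1.16 to -1.27, adjusted p 0.0613 to 0.0863). Btg1 was not called without sedentary replicates 1, 2 or 3 or trained 6 h replicates 1, 2 or 3 (log2 fold change -1.24 to -1.30, adjusted p 0.0983 to 0.109) and Smim27 not without sedentary replicate 3 or trained 6 h replicate 3 (log2 fold change -1.07 to -1.23, adjusted p 0.0646 to 0.0733).

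No gene was called among 11 slow fibre genes, with Myh7, the slow myosin, at 33.7, 33.2 and 89.4 TPM in sedentary and 83.7, 29.7 and 59.6 TPM in trained 6 h libraries. Of 13 fast fibre genes, Mylk4, a myosin light chain kinase, was called higher, from 127, 107 and 112 to 153, 183 and 197 TPM (log2 fold change 0.61, SE 0.17, adjusted p 0.0301). Mylk4 lost its call without sedentary replicates 2 or 3 or trained 6 h replicates 2 or 3 (log2 fold change 0.54 to 0.59, adjusted p 0.0778 to 0.108). No gene was called among 14 genes of cholesterol synthesis, with a median log2 fold change of -0.24 and with none higher and 4 lower at an unadjusted p below 0.05 with limma. None was called either among 29 chromatin and DNA methylation enzymes (1 higher and 3 lower) or 28 cold-inducible and splicing regulators (3 higher and 3 lower). With TPM rescaled to protein-coding nuclear genes, 1 of the former was called lower and 1 of the latter higher.

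**Figure D5:**
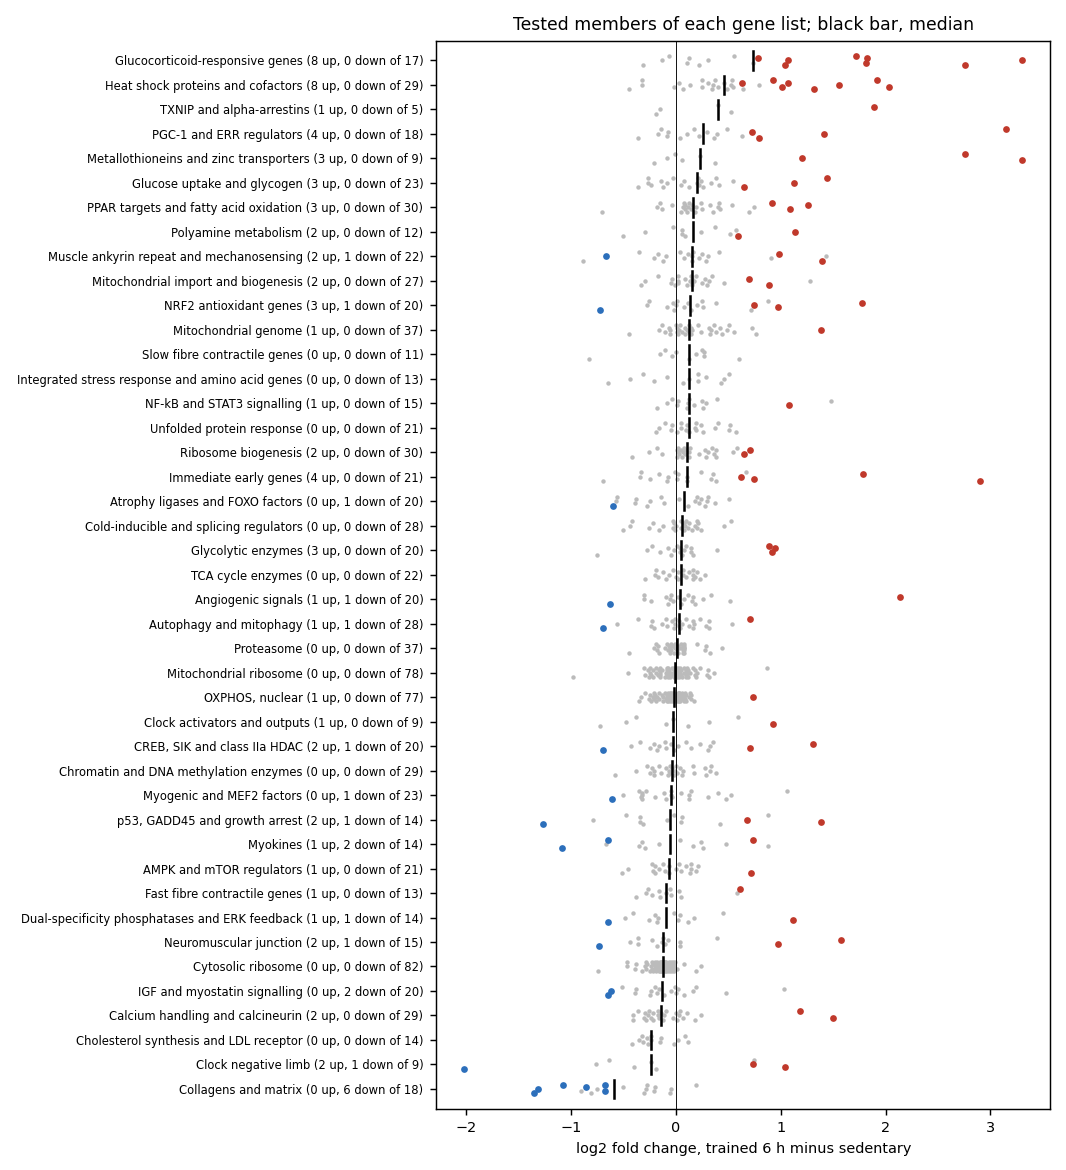
Log2 fold change of trained 6 h minus sedentary muscle (horizontal axis) for each tested member of 43 gene lists (1 row a list, ordered by median), with called genes in red (higher) or blue (lower), other genes in grey and the median as a black bar. Glucocorticoid-responsive genes have the highest median at 0.74, heat shock proteins follow at 0.46, and collagens and matrix have the lowest at -0.59, while most lists centre near 0.

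Markers of other cells in the tissue were called in few cases. Of 9 endothelial markers Cldn5, a tight junction protein, was called lower, from 6.44, 5.38 and 5.99 to 4.43, 3.04 and 1.87 TPM (log2 fold change -0.89, SE 0.27, adjusted p 0.0495). Cldn5 lost its call without sedentary replicates 1, 2 or 3 or trained 6 h replicates 2 or 3 (log2 fold change -0.62 to -0.96, adjusted p 0.0829 to 0.189). Among 4 tested satellite cell markers Musk was called, which fibres also express at the junction. Of 8 tested macrophage markers none was called against sedentary muscle. The list of 11 summed to 45.0 to 49.3 TPM in sedentary and 37.2 to 55.1 TPM in trained 6 h libraries. All 8 neutrophil and all 8 lymphocyte markers were under 1 TPM on average, with sums of 1.24 to 1.75 and 0.867 to 1.17 TPM in sedentary and 0.724 to 1.47 and 0.683 to 0.966 TPM in trained 6 h libraries. Adipocyte markers summed to 130.3 to 158 TPM in sedentary and 190.0 to 323 TPM in trained 6 h libraries, without overlap. Their median log2 fold change was 0.64 over 6 tested genes, though none was called. Fabp4 made up most of the sums, at 105, 114 and 116 TPM in sedentary and 231, 154 and 148 TPM in trained 6 h libraries. Trained 6 h replicate 2 was below all sedentary libraries in Plin1 and Retn and within their range in Adipoq and Cfd. It was above them in Cidec, Lep and Fabp4. No marker was at 0 in all 6 libraries, and the part of adipose tissue in the rise of lipid genes such as Plin5 was not tested. No gene was called among the markers of smooth muscle, red blood cells and nerve.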

How the data were processed

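Paired-end reads of TruSeq v2 libraries, which do not mark strand, had been mapped and counted by the authors. Per the labels, STAR 2.7.9, Salmon 1.5.0, DESeq2 3.16 and GRCm39 were used, with no role stated for each. The authors deposited 1 table of TPM for 53738 gene symbols in 21 libraries, and every column was assigned to a sample. TPM is scaled by transcript length and to one total, so a rise of abundant transcripts lowers the rest, and without strand overlapping and antisense genes cannot be told apart. Untrained 0 h replicate 1 and trained 0 h replicate 1 held identical values and were left out, which leaves 19 libraries in 7 groups. Nothing in the sources says more of the origin of the 3 libraries of a group, so p values measure the spread between these samples.

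From the deposited TPM, log2(TPM + 0.5) was modelled by limma 3.58.1 under R 4.3.3 (all groups in 1 model, variance trend, 12 residual degrees of freedom), on genes whose mean reached 1 TPM in the 6 libraries, with Benjamini-Hochberg adjustment over these. A call needed an adjusted p below 0.05 together with a change of 1.5-fold, as in the study. Fold changes are on the log2(TPM + 0.5) scale, which understates the change of low genes. The script was tested on simulated data. Named genes are the 12 largest rises and 12 largest falls among called protein-coding nuclear genes without overlap of the groups, and the called or defining members of 43 gene lists and 12 marker lists. The members and lists were chosen with earlier results of these data known. Alternatives were pseudocounts of 0.1 and 1, filters of none and 5 TPM, 3 scalings, protein-coding nuclear genes alone, other sets of libraries, variance models, a replicate block, other fold thresholds and leaving out each library. For list counts, 2 more were chosen after seeing the data. Gene positions are from GENCODE M39 on GRCm39 and promoter sequences from RefSeq on GRCm38.p6. The figures were drawn with matplotlib 3.10.9.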

Additional observations from a re-analysis of the deposited data

Results flagged for a closer look

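The level at 6 h after the bout differed between trained and untrained mice for 26 of the 96 named genes called against sedentary muscle. Each had an adjusted p below 0.05 and a change of at least 1.5-fold in a limma test of trained minus untrained muscle at 6 h. The series has no trained mice without a bout, so a standing difference from training and a different response to the bout cannot be told apart. A difference in the length or speed of the run cannot be told apart from these either. Differences are on the log2 scale of TPM plus 0.5, and a negative value means a lower level in trained muscle. Genes named without a call against sedentary muscle, such as Ankrd1, Fos and Egr1, are not among the 26. With only the 6 libraries of both groups fitted, 3 of the 26 kept the call (Hspa1a, Dusp18 and Styx). Leaving out 1 library at a time kept 20 (without untrained 6 h replicate 2) to 26 of them, the lost calls being among Gpx3, H2-Ab1, Hmox1, Hsph1, Srxn1 and Styx. Median-of-ratios scaling lost Gpx3 and Hsph1. Gpx3, Hmox1 and Hsph1 were lost on protein-coding nuclear genes and on TPM rescaled without the mitochondrial genome and the 10 highest genes. Without an expression filter Hmox1, Hsph1 and Styx were lost, and with the replicate block Hsph1 and Styx.

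Lower in trained than in untrained muscle were the chaperone genes Hspa1b at -5.01, Hspa1a at -4.29, Hspb1 at -2.15, Hsp90aa1 at -1.97, Hspb8 at -0.92, Bag3 at -0.87 and Hsph1 at -0.62. The early genes Atf3 and Nr4a3 were at -3.38 and -1.87, and the sarcomere genes Xirp1 and Flnc at -2.35 and -1.65. The antioxidant genes Srxn1, Hmox1 and Gpx3 were at -1.36, -0.65 and -0.61, the calcineurin inhibitor Rcan1 at -1.21 and the autophagy gene Gabarapl1 at -0.81. In all of these but Gpx3, trained muscle was at the same time called higher than sedentary muscle. Styx at -2.81, Mib1 at -1.31, Nr1d1 at -1.08 and H2-Ab1 at -0.96 were, like Gpx3, called lower than both groups.

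Higher in trained than in untrained muscle were Sln at 2.17, Dusp18 at 1.64, Ppara at 1.45, Egln3 at 1.32, Esrrg at 1.24 and Esrrb at 0.91, all of them called higher than sedentary muscle as well. Trained 6 h replicate 1 was the library nearest to the untrained 6 h group in Hspa1a, Hspa1b, Hsp90aa1, Hspb1, Atf3, Xirp1 and Flnc.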

How the results depend on the processing

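The 454 calls against sedentary muscle became 256 among the 6026 genes whose mean reached 5 TPM, 259 when only the libraries of the groups compared were fitted, 167 when the change was tested against a fold of 1.2, and 1276 with no threshold on the fold. The first 2 held fewer genes and fewer libraries by construction. Leaving out 1 library at a time gave 348 (without trained 6 h replicate 1) to 451 calls. The 222 calls against untrained 6 h muscle became 17 with only those 6 libraries, 561 with no fold threshold, 142 without untrained 6 h replicate 2 and 380 without untrained 6 h replicate 1. The 403 calls against trained 72 h muscle became 1091 with no fold threshold and stayed between 336 and 431 on leaving out a library. Every other alternative kept these counts within 1.5 times. No paired numbering was found, since the deviations of samples with the same replicate number correlated at -0.03, 0.05 and -0.007, and the replicate number as a block gave 435, 206 and 396 calls. By list, leaving out trained 6 h replicate 1, chosen after seeing the data, left 2 of 4 immediate early, 0 of 2 autophagy, 0 of 2 IGF and myostatin, 1 of 2 calcium, 1 of 2 polyamine and 3 of 6 collagen calls, and rescaling to protein-coding nuclear genes, also chosen then, gave 4 in place of 2 ribosome biogenesis calls. The 96 named genes gave 1986 values over 21 alternatives, since 68 of them passed the filter of 5 TPM and 95 entered each of 2 rescalings. All of these values kept their direction, and 39 genes were called under each alternative that held them. Of the others, 40 lost the call with only the groups compared, 47 against a fold of 1.2 and 36 on leaving out at least 1 library. With no counts the depth behind low genes is unknown, and 202 of the called genes had a mean under 5 TPM. With 3 libraries a group an exact permutation test cannot go below 0.10.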

Other observations

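The genes below lie outside the lists and were chosen after their values were seen. Among fuel genes, G0s2, an inhibitor of the triglyceride lipase ATGL, was at 4.63, 5.79 and 8.15 TPM in sedentary, 19.1, 19.5 and 21.1 TPM in trained 6 h and 7.37, 8.36 and 6.91 TPM in untrained 6 h libraries (log2 fold change 1.64, SE 0.26, adjusted p 0.00143 with limma against sedentary). Pank1, which starts coenzyme A synthesis, was at 3.76, 4.03 and 3.58, 11.3, 8.96 and 8.04 and 4.96, 5.49 and 5.03 TPM in the same groups (log2 fold change 1.198, SE 0.12, adjusted p 0.000110). Xdh, the enzyme that makes urate, was at 6.39, 6.83 and 7.04 and 17.8, 15.9 and 16.1 TPM in sedentary and trained 6 h muscle (log2 fold change 1.24, SE 0.14, adjusted p 0.000189). Trained 6 h libraries lay above all sedentary libraries in each of these genes. Tnfrsf12a, the receptor of the cytokine TWEAK, rose from 10.8, 10.3 and 9.32 to 43.9, 26.1 and 25.1 TPM (log2 fold change 1.55, SE 0.18, adjusted p 0.000212) and was at 88.3, 115 and 93.3 TPM in untrained 6 h muscle. Il15ra, the receptor chain that carries interleukin-15, rose from 4.93, 6.70 and 6.12 to 15.7, 12.8 and 12.9 TPM (log2 fold change 1.16, SE 0.11, adjusted p 5.68e-05). Thra, the thyroid hormone receptor alpha, fell from 26.7, 26.8 and 26.7 to 16.5, 16.8 and 15.8 TPM (log2 fold change -0.69, SE 0.07, adjusted p 0.000123).

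All 5 tested MHC class II genes, a family gathered after H2-Ab1 was seen, were called lower against sedentary muscle, with a median log2 fold change of -0.68. Cd74, their invariant chain, was at 23.7, 29.2 and 26.1 TPM in sedentary and 14.9, 16.8 and 17.9 TPM in trained 6 h libraries (log2 fold change -0.65, SE 0.18, adjusted p 0.0286). Its untrained 6 h libraries were at 19.4, 32.4 and 29.5 TPM. H2-Aa, H2-Eb1 and H2-DMa fell by 0.71, 0.68 and 0.63 on the log2 scale, with limma adjusted p values of 0.0139, 0.0431 and 0.00554. Without trained 6 h replicate 1, H2-Ab1 alone of the 5 was called, with Cd74 at -0.58 (adjusted p 0.106), H2-Aa at -0.65 (adjusted p 0.0576), H2-Eb1 at -0.51 (adjusted p 0.170) and H2-DMa at -0.45 (adjusted p 0.0118). Of the macrophage markers, which mark cells that carry these molecules, none was called against sedentary muscle. Against untrained 6 h muscle, 2 of the 8 tested were called lower in trained muscle, and the median log2 difference was -0.54.

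Of 143 tested solute carriers 11 were called higher and 2 lower, with a median log2 fold change of 0.01. Slc16a1, the lactate transporter MCT1, rose from 4.80, 5.43 and 5.98 to 11.5, 9.54 and 11.8 TPM (log2 fold change 0.96, SE 0.10, adjusted p 8.00e-05 with limma), and Slc25a5, an exchanger of ATP and ADP in mitochondria, from 13.6, 14.7 and 17.0 to 37.7, 29.2 and 35.2 TPM (log2 fold change 1.15, SE 0.11, adjusted p 6.00e-05). Slc40a1, the iron exporter ferroportin, fell from 9.05, 10.9 and 10.2 to 4.40, 5.34 and 6.09 TPM (log2 fold change -0.88, SE 0.14, adjusted p 0.00159).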
